A study of Triticum aestivum with 9 samples.

Results

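The genes described here are 55 wheat genes annotated to photosynthesis, out of 130542 genes with a deposited value, in leaves under endoplasmic reticulum (ER) stress. They are the genes that the study's supplementary list of Gene Ontology (GO) terms gives for photosynthesis or for the oxygen evolving complex of photosystem II. That list holds only genes that the study had already called different between DTT and control leaves, so the members were chosen by their measured DTT and control values, and the difference between these groups is given below as a description. Counts past the thresholds in it stand only beside the share of all genes, and no test of it is read. All 24 identifiers of the oxygen evolving complex term could be read, but only 40 of the 96 of the photosynthesis term, and 9 stood under both. All 55 were found in the expression table, and all 55 passed the filter on low values, a mean FPKM of at least 0.1. They stand for the readable part of the list and not for every wheat photosynthesis gene. The list gives genes higher and genes lower in DTT leaves apart, and a larger part of the lower ones could not be read. The numbers of higher and lower members, and medians over all members, thus depend on that cut.

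RNA was sequenced from leaves of seedlings of the cultivar Yunong211, a hexaploid bread wheat, on day 2 of treatment. The control (C) had plain nutrient solution, the DTT group (D) had 7.5 mM DTT in it, and the DTT + TUDCA group (T) had 7.5 mM DTT with 25 μg/mL TUDCA. DTT is a reducing agent that disturbs the forming of disulfide bonds in the ER, and TUDCA, a bile acid, serves as a chemical chaperone. Each group had 3 independent biological replicates, which makes 9 libraries, and plants given TUDCA alone are not among them. The chemicals were given to intact seedlings in the nutrient solution, and these data do not show whether they reached the leaf. Each library is a bulk leaf sample, in which fewer cells of a type and less RNA per cell cannot be told apart.

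In photosynthesis, photosystem II takes electrons from water at a metal cluster that is shielded by the extrinsic proteins of the oxygen evolving complex. The electrons pass down a chain to photosystem I, which lifts them once more and hands them to ferredoxin. Chlorophyll, the pigment of both photosystems, is a porphyrin, and its pathway shares its first steps with that of heme. The nuclear-encoded subunits of these complexes are made in the cytosol and mostly imported straight into the chloroplast. The files give no gene names, so each member is described by the GO terms of the study's list. Long identifier lists of other terms were open to the same cut, so a term not read for a gene may still apply to it. Members were sorted into 24 genes of the oxygen evolving complex, 8 of photosystem I, 8 others of photosystem II and 13 of porphyrin biosynthesis. For the other 2, none of these terms could be read. Leaf marker genes could not be looked up by name, and the level of the listed genes themselves was the only check of the tissue. Of the 93 genes above 1000 scaled FPKM in the control, 11 were members, and one of the members, Traes_2DS_28E23A3D3, had rank 2 among all genes.

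FPKM counts fragments per kilobase of transcript and corrects for the size of the library, so levels can be compared between genes. Each library was divided by a scaling factor of 0.861 to 1.096 before use, which gives the scaled FPKM used throughout. Without that step the median of all tested genes differed by 0.22 on the log2 scale between D and C and by 0.16 between T and C, the treated libraries being higher. Libraries held 16328278 to 26747731 fragments on genes. DTT + TUDCA replicate 2 stood apart, with 2601 of 55137 genes over 4-fold from the other replicates of its group, against 224 to 431 in the other libraries. Differences between groups are fitted log2 values from limma on log2(scaled FPKM + 0.1), which understate the change of weakly expressed genes. A gene counts as past the thresholds at the study's limits, an unadjusted P-value under 0.01 and an absolute log2 difference of at least 1.

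In the control, 12 members lay above 100 scaled FPKM, and all 12 were lower in D, by a median of -1.25 on the log2 scale (range -1.43 to -1.10). Of the 16 members below 1 scaled FPKM in the control, 15 were higher in D. Of all 2239 genes below 1 scaled FPKM in the control and past the thresholds in D vs. C, 78.7% were higher in D, and nothing is read from the split. In all, 34 members lay lower in D than in C and 21 higher, a split that depends on which identifiers could be read. The 34 lower genes had a median control level of 16.9 scaled FPKM (0.779 to 7092), and the 21 higher genes one of 0.501 (0 to 39.6). By fitted values, 52 members were past the thresholds in D vs. C, 19 up and 33 down, where 8.02% of all 78030 tested genes were (4.27% up and 3.75% down), and 49 had an adjusted P-value under 0.05, where 9.04% did. Libraries of the 2 groups did not overlap in any of the 55, against 16.6% of all genes not overlapping upward and 17.2% downward. Nothing is read from these counts, since this contrast chose the genes.

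**Figure D1:**
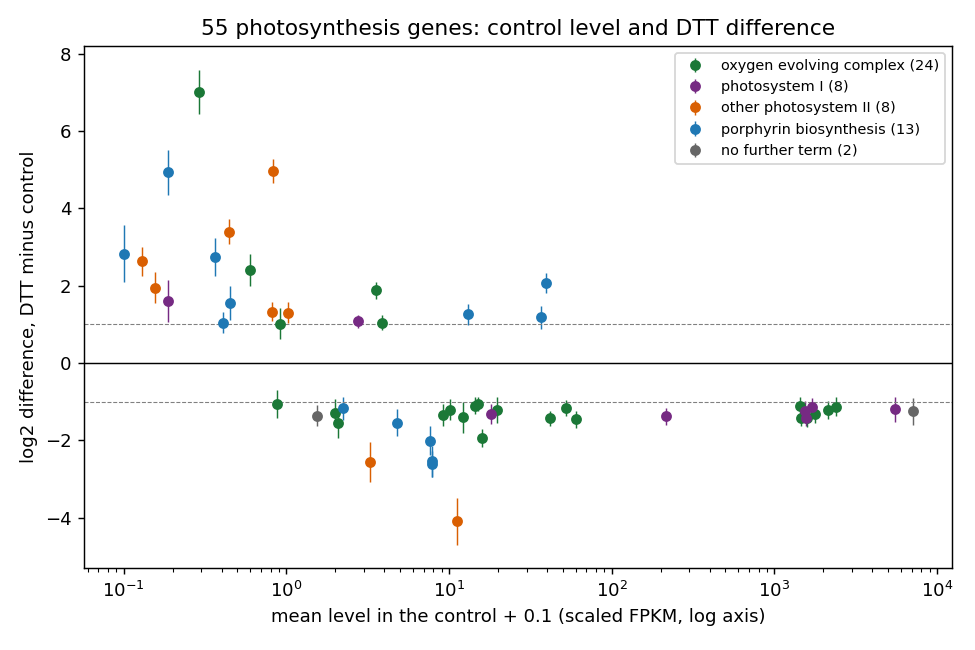
Fitted log2 difference between DTT and control (vertical axis) against the mean control level in scaled FPKM plus 0.1 (horizontal log axis) for the 55 genes, coloured by role. Points are fitted values with their standard error from 3 libraries a group, and the dashed lines mark a difference of 1. All 12 genes above 100 scaled FPKM lie below 0, and the 21 genes above 0 have control levels of 39.6 or less.

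The 12 members above 100 scaled FPKM in the control, 11 of them above 1000, had a median D vs. C difference of -1.25. That was near the median of all genes above 1000, and larger in size than that of all genes above 100. The 93 genes above 1000 had a median D vs. C difference of -1.32, and 69 of them were past the thresholds downward. They include the 11 members and further photosystem I genes of the same list. Over the 951 genes above 100 the median was -0.57, with 274 past the thresholds downward and 13 upward. Over all 2927 genes past the thresholds downward the median was -1.59, and over the 3328 upward ones it was 1.81.

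Counted in fragments, the 55 genes held 2.46% ± 0.32 (SD, n = 3) of all fragments on genes in the control, 1.29% ± 0.065 in D and 1.41% ± 0.106 in T. Control replicates 1, 2 and 3 held 2.28%, 2.83% and 2.26%. The DTT libraries held 1.32%, 1.21% and 1.33%, and the DTT + TUDCA libraries 1.34%, 1.36% and 1.53%. The 95% Wilson interval of each share is within 0.00758 percentage points of it, for counting error only. Every control library lay above every treated one, and the D and T libraries lay side by side, all T libraries above all D libraries by a small margin. The 2 large parts of this share were the oxygen evolving complex, with 1.27% ± 0.142 in C, 0.634% ± 0.00279 in D and 0.711% ± 0.0574 in T, and photosystem I, with 0.841% ± 0.148, 0.421% ± 0.0298 and 0.443% ± 0.0495. Porphyrin biosynthesis went the other way. Its 13 genes held 0.0229% ± 0.00356 in C, 0.0713% ± 0.0154 in D and 0.0595% ± 0.0111 in T. One gene, Traes_6AS_67FD620BE, made up most of that difference, with 0.00939% ± 0.00222 in C, 0.047% ± 0.0125 in D and 0.0395% ± 0.00914 in T. The other 12 held 0.0135% ± 0.00262, 0.0243% ± 0.00555 and 0.0199% ± 0.00489, and 5 of them lay lower in D.

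**Figure D2:**
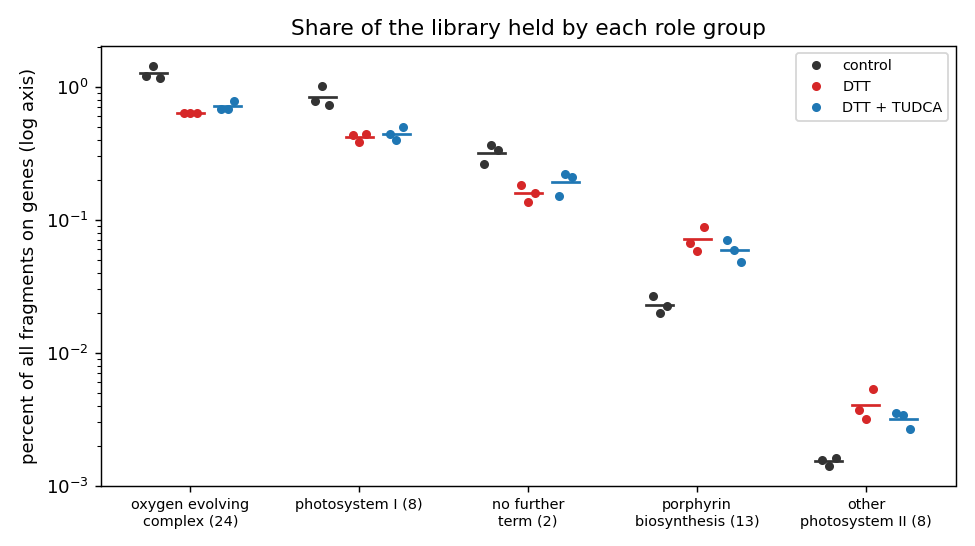
Percent of all fragments on genes held by each role group (log axis) in each library, with control in black, DTT in red and DTT + TUDCA in blue. Points are the 3 libraries of a group and lines their mean. The oxygen evolving complex genes hold 1.27% in the control and 0.634% in D, and the porphyrin genes 0.0229% and 0.0713%.

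Among the oxygen evolving complex genes, 19 of 24 lay lower in D (median -1.29, range -1.94 to -1.06) and 5 higher (median 1.88, range 1.02 to 7.02). Extrinsic proteins of this complex shield the water-splitting cluster on the inner side of the thylakoid membrane. The GO term alone does not show that role for each of the 24 genes. The most abundant was Traes_2BL_4B8B77E73, on the long arm of chromosome 2B, listed also under photosystem II stabilization. It stood at 2126, 2862 and 2214 scaled FPKM in the control replicates, at 1115, 1017 and 1140.1 in D, and at 1107, 1416 and 1477 in T. Control replicate 2 was the highest library, and the D and T values overlapped. The fold of the means was 0.454 in D vs. C (fitted log2 difference -1.13, SE 0.25). Traes_2AL_264BF03F4, on 2AL and under the same stabilization term, stood at 1922, 2544 and 1948 in C, at 917, 849.6 and 964 in D and at 991, 1175 and 1240.3 in T. All its T libraries lay above its D libraries, yet the fitted T vs. D difference of 0.31 (SE 0.23) had a P-value of 0.21. Traes_2DS_46C9F8F5F, on the short arm of 2D, had 1717, 2125 and 1495 in C, 647, 789 and 681 in D, and 781, 880.4 and 836 in T. Its D vs. C difference was -1.32 (SE 0.22).

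Homoeologous group 2 held 11 of the 24 genes, and 6 of these were the only members of the group above 100 scaled FPKM in the control. The files do not say which genes are homoeologous copies, and near-identical copies can share reads. One set on the long arms of the A, B and D genomes was close in level and in difference. Traes_2AL_0A039E562, Traes_2BL_476B6147F and Traes_2DL_6E913E1A4 had control means of 1455 ± 236, 1579 ± 233 and 1439.9 ± 327 scaled FPKM (SD, n = 3). In D their means were 537 ± 5.11, 581 ± 20.6 and 661 ± 49.7, and in T 552 ± 83.9, 616 ± 86.3 and 643 ± 77.3. Their D vs. C differences were -1.42, -1.43 and -1.10, and T lay within 0.07 of D for all 3. A second set on the short arms of group 7 was far less abundant, and its levels were not close. Traes_7AS_1839BE651, Traes_7BS_1A1F101B1 and Traes_7DS_D4832745D had control means of 60.0 ± 16.0, 12.2 ± 5.02 and 14.3 ± 2.88, and D means of 21.4 ± 1.90, 4.30 ± 0.395 and 6.60 ± 1.11. In T they stood at 31.2 ± 6.86, 10.1 ± 6.05 and 8.88 ± 2.22. Both sets were picked after their values were seen, by chromosome arm. The largest negative difference in the group was that of Traes_6DL_C160E8CEF, with 11.9, 22.0 and 13.8 in C, 4.18, 4.50 and 3.19 in D and 5.36, 5.92 and 6.04 in T.

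The 5 oxygen evolving complex genes that lay higher in D all had control means under 4 scaled FPKM, so they made up little of the group's total. Traes_2BL_CF3CFE8FE, on the same chromosome arm as 4 of the lower genes, showed the largest difference of all 55. It had 1, 2 and 1 fragments in the control libraries, 522, 173 and 311 in D, and 320, 49 and 93 in T. In scaled FPKM it stood at 0.141, 0.328 and 0.102 in C, at 60.1, 21.9 and 34.2 in D and at 38.5, 7.39 and 13.9 in T. With the control at or under the floor of 3 fragments a library, the gene was at least 95.2-fold higher in D and at least 49.0-fold higher in T. Traes_5BL_FCB1625F3, on 5BL, was the only one of the 5 that stood higher in T than in D and is taken up below.

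**Figure D3:**
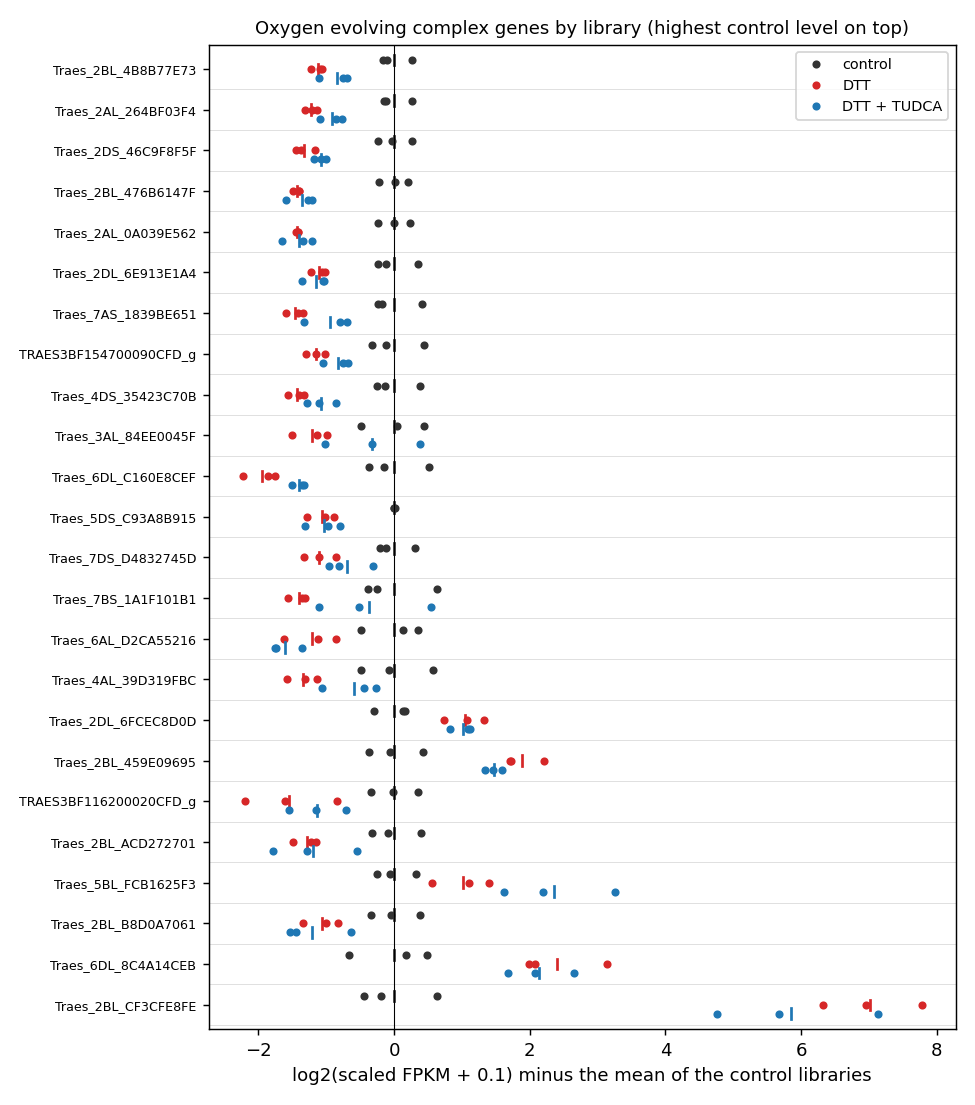
The 24 oxygen evolving complex genes, ordered by control level, with log2(scaled FPKM + 0.1) of each library minus the mean of the control libraries (horizontal axis). Points are libraries and short bars group means, with control in black, DTT in red and DTT + TUDCA in blue. In D, 19 genes lie to the left of all their control libraries and 5 to the right, and for Traes_3AL_84EE0045F, Traes_7BS_1A1F101B1 and Traes_4AL_39D319FBC the T libraries reach into the control range.

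Of the 8 photosystem I genes, 6 lay lower in D (median -1.28, range -1.41 to -1.13) and 2 higher. Traes_1AL_C42DE440F, listed under the photosystem I reaction center, was the second most abundant member. It stood at 4806, 7389.6 and 4441 scaled FPKM in C, at 2413, 2006 and 2685 in D, and at 2518, 2310.2 and 2869.6 in T. Every treated library lay below every control library, with control replicate 2 far above the others. Traes_3B_3793EBCBE had 1716, 1931 and 1488 in C, 746, 779.7 and 799.9 in D and 819.6, 574 and 782 in T. Traes_5BL_7EDE873F5 had 1461, 1991 and 1257 in C, 603, 528 and 607 in D and 632, 591 and 667 in T, the largest negative difference of the group at -1.41 (SE 0.23). Traes_5DL_23458B3EB, on the matching arm of the D genome, was less abundant, at 215 ± 69.9 in C and 80.0 ± 4.53 in D, with a like difference of -1.38. Of the 2 higher genes, Traes_4DS_1D6698102 was near the floor, with 1, 3 and 3 fragments in C, 7, 20 and 18 in D and 37, 37 and 8 in T. The lower bounds were at least 4.35-fold higher for D and at least 9.19-fold higher for T.

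The other photosystem II genes were weakly expressed, with control means of 0.0298 to 11.1 scaled FPKM, and 6 of 8 lay higher in D (median 2.29). That count depends on which identifiers could be read. Traes_4DL_6EBF0647F showed the largest negative difference of all members. It stood at 11.1, 10.9 and 11.3 in C, at 0.131, 0.912 and 1.08 in D, and at 1.19, 3.88 and 1.58 in T. The control libraries were close together, every D library was below every T library, and the fitted D vs. C difference was -4.10 (SE 0.60). Traes_1AS_F798C735B followed with 3.21, 3.32 and 2.95 in C, 0.849, 0.312 and 0.337 in D and 0.370, 0.371 and 1.65 in T. On the other side, Traes_2DL_0556EE4CB had 1.05, 0.608 and 0.521 in C, 21.9, 19.2 and 36.9 in D and 28.5, 25 and 17.3 in T. That is a fold of 35.8 between the means of D and C, with D and T overlapping. Traes_7DS_01A3143F5 differed less, at 0.923 ± 0.0808 in C, 2.46 ± 0.609 in D and 2.22 ± 0.559 in T.

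Porphyrin biosynthesis, the pathway to chlorophyll and heme, held 8 genes that lay higher in D (median 1.81) and 5 lower (median -2.01). The 3 most abundant were among the higher ones. Traes_6AS_67FD620BE stood at 43.1, 30.8 and 44.9 scaled FPKM in C, at 171, 120.0 and 215 in D, and at 182, 136 and 123 in T. No treated library came near the control range, and the fold of the means over C was 4.26 for D and 3.71 for T. Traes_5DL_E83F92234, also listed under GTPase activity, had 52.6, 29.7 and 27.4 in C, 56.2, 91.6 and 97.2 in D and 75.6, 95.9 and 54.6 in T. Control replicate 1 and DTT replicate 1 were close here, so the groups only just separated. TRAES3BF111700040CFD_g had 14.2, 14.3 and 10.1 in C, 22.9, 29.3 and 42.8 in D and 29.3, 28.0 and 18.2 in T.

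The 5 porphyrin genes that lay lower in D included a set on the long arms of group 1 with nearly equal control levels, picked after their values were seen. Traes_1AL_5C8689E82, Traes_1BL_A1A6E39BD and Traes_1DL_30F34E129 had control means of 7.79 ± 1.34, 7.5 ± 1.04 and 7.72 ± 2.27 scaled FPKM, and D means of 1.30 ± 0.466, 1.82 ± 0.543 and 1.18 ± 0.383. Their D vs. C differences of -2.54, -2.01 and -2.62 were larger than that of any abundant photosystem gene. In T the means were 2.53 ± 1.59, 3.21 ± 1.98 and 1.88 ± 0.713, with DTT + TUDCA replicate 2 the highest T library for each of them, at 4.37, 5.47 and 2.63. Another of the 5, Traes_1BS_3761C242C, is placed among the C2C2-GATA transcription factors in the study's list of such factors. It stood at 2.12 ± 0.253 in C, 0.906 ± 0.261 in D and 0.834 ± 0.225 in T.

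**Figure D4:**
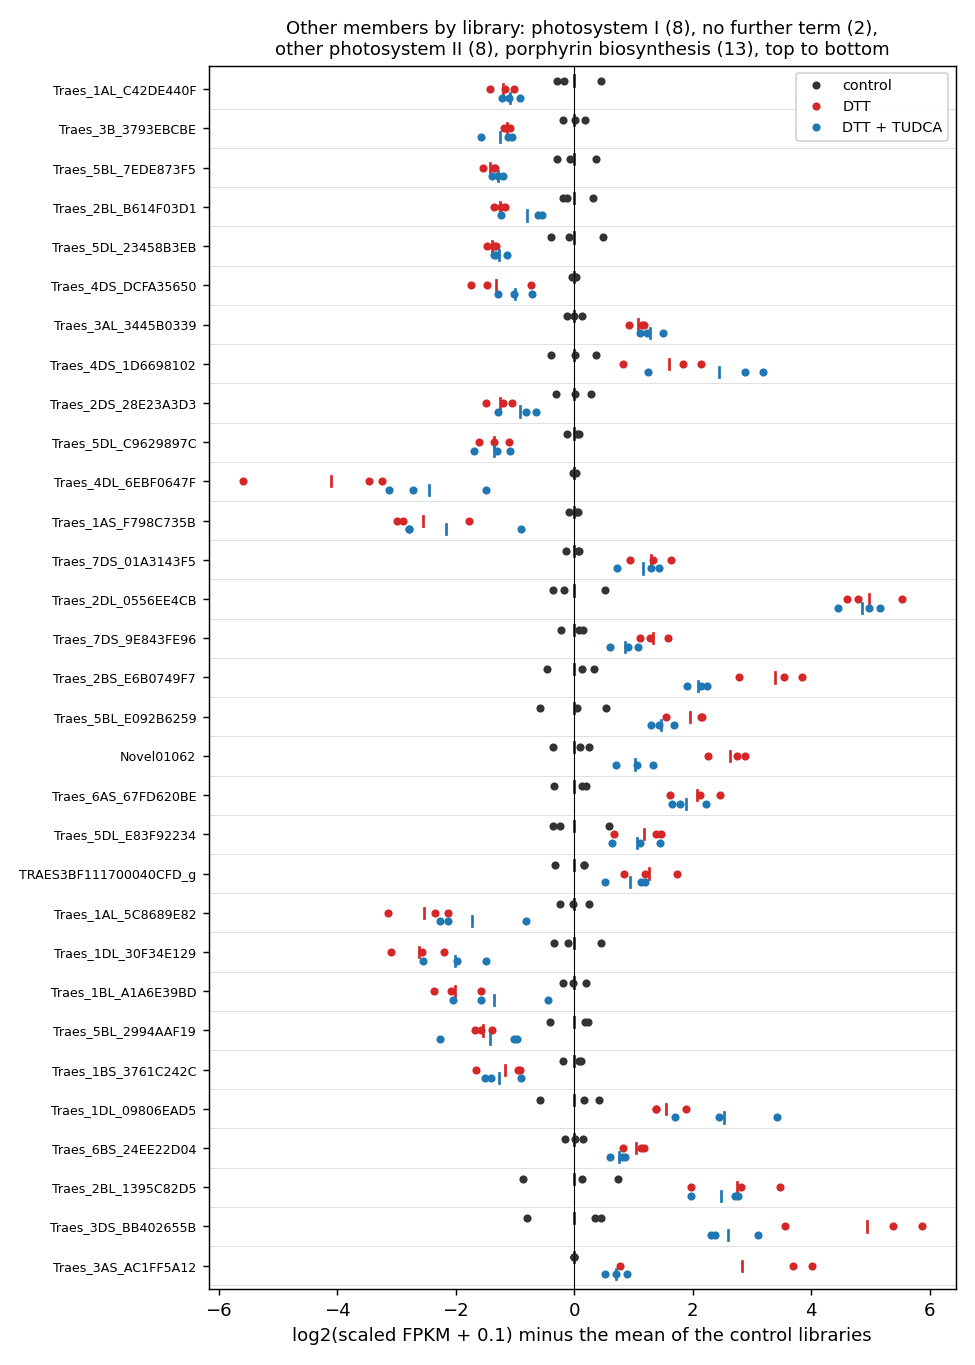
The 31 members outside the oxygen evolving complex, in blocks by role and ordered by control level within a block, with log2(scaled FPKM + 0.1) of each library minus the mean of the control libraries (horizontal axis). Points are libraries and short bars group means, with control in black, DTT in red and DTT + TUDCA in blue. Traes_4DL_6EBF0647F has the lowest D values, at -4.10 on average, and Traes_2DL_0556EE4CB and Traes_3DS_BB402655B the highest, at 4.98 and 4.93.

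The 2 genes for which none of these terms could be read both lay lower in D. Traes_2DS_28E23A3D3, the most abundant member, stood at 5678, 8513 and 7084 scaled FPKM in C, at 3365, 2487 and 3042 in D, and at 2857, 4457 and 3967 in T. Traes_5DL_C9629897C, under the photosystem II stabilization term, had 1.53, 1.32 and 1.5 in C, 0.502, 0.620 and 0.406 in D and 0.525, 0.379 and 0.632 in T. Their control means of 7092 and 1.45 lay far apart, while their D vs. C differences were -1.25 and -1.36.

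The members nearest to the fold limit of the rule were Traes_6BS_24EE22D04 and Traes_2DL_6FCEC8D0D, with fitted D vs. C differences of 1.05 each, and Traes_5BL_FCB1625F3, at 1.02. No member had a fitted difference inside the limit, so none stands on the other side of it. Traes_5BL_FCB1625F3, Traes_4DS_1D6698102 and Traes_2BL_B8D0A7061, at 1.02, 1.61 and -1.06, were the 3 members outside the thresholds by P-value. Control replicate 2 stood out in the lower genes. It was the highest control library for 28 of the 34 lower genes and for all 12 members above 100 scaled FPKM, against 34.8% of all tested genes. Without that library, 37 members were past the thresholds in D vs. C, 15 up and 22 down, and all 37 were among the 52.

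The comparison of T with C asks whether leaves given TUDCA along with DTT still differed from the control. It shares the control libraries that helped choose the genes, so it is not independent of the choice. In T vs. C, 39 members were past the thresholds, 16 up and 23 down, where 7.87% of all tested genes were (4.36% up and 3.5% down). With limma's P-values adjusted over all genes, 36 members had an adjusted P-value under 0.05, against 7.76% of all genes, and 51 an unadjusted P-value under 0.05, against 26.1%. T and C libraries did not overlap in 21 members upward and 31 downward, against 15.3% and 15.7% of all genes. The median difference over the members was -0.85, and -0.02 over all tested genes.

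By role, the difference passed in T vs. C for 15 of 24 oxygen evolving complex genes (5 up, 10 down), 7 of 8 photosystem I genes (2 up, 5 down), 6 of 8 other photosystem II genes (4 up, 2 down) and 10 of 13 porphyrin genes (5 up, 5 down). Traes_2DS_46C9F8F5F fell by 1.08 (limma, P-value 0.00069, adjusted P-value 0.019), a call that was lost without control replicate 2, with unscaled FPKM (-0.89) and with quantile normalization (-0.28). Traes_2BL_4B8B77E73 and Traes_2AL_264BF03F4, the 2 most abundant genes of the complex, were at -0.85 and -0.91 and short of the fold limit, with adjusted P-values of 0.066 and 0.044. Traes_3B_3793EBCBE and Traes_5BL_7EDE873F5 of photosystem I fell by 1.25 and 1.29 (adjusted P-values 0.011 and 0.0095), but with quantile normalization they were at -0.50 and -0.62 and did not pass. Traes_1AL_C42DE440F was at -1.08 with a P-value of 0.0069 (adjusted 0.068). With the replicate number as a block over the libraries of all 3 groups, its P-value was 0.0191 and it no longer passed. Among porphyrin genes, Traes_6AS_67FD620BE rose by 1.89 (adjusted P-value 0.0027) and Traes_1DL_30F34E129 fell by 2.00 (adjusted P-value 0.0081). Traes_5DL_E83F92234 was at 1.07 with a P-value of 0.0065 (adjusted 0.066), which the same block turned into 0.0115 and a call lost. Traes_2DL_0556EE4CB of photosystem II rose by 4.87 (adjusted P-value 0.00013).

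In 3 members the T libraries overlapped the control libraries, all of them oxygen evolving complex genes that lay lower in D. They are named for that overlap, after their values were seen. Traes_3AL_84EE0045F had 13.4, 25.7 and 19.5 scaled FPKM in C, 9.50, 6.57 and 8.49 in D and 9.31, 24.6 and 15.0 in T. Traes_7BS_1A1F101B1 had 8.81, 17.9 and 9.72 in C, 4.45, 4.60 and 3.85 in D and 5.30, 16.9 and 8.0 in T. Traes_4AL_39D319FBC had 6.17, 13 and 8.24 in C, 3.92, 2.84 and 3.46 in D and 4.13, 7.23 and 6.42 in T. DTT + TUDCA replicate 2, the library that stood apart from its group, was the highest T library in all 3. Their T vs. C differences were -0.32, -0.36 and -0.59, with P-values of 0.38, 0.38 and 0.075.

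The comparison of T with D asks what TUDCA changed under DTT. It shares the DTT libraries that helped choose the genes, so these counts are not independent of the choice either. Of the 34 members lower in D than in C, 28 had a higher fitted level in T than in D, with a median of 0.31. Of the 21 higher ones, 17 had a lower level in T, with a median of -0.27. These signs hold for the scaling used, and with unscaled FPKM 53 of the 55 kept them and with quantile normalization 50. Counts were alike for all genes past the thresholds in D vs. C. Of the 2927 downward ones 81.8% were higher in T than in D, with a median of 0.38, and of the 3328 upward ones 79.3% were lower, with a median of -0.38. No member had an adjusted P-value under 0.05 in T vs. D with limma, where 0.00128% of all tested genes did, and 11 had an unadjusted P-value under 0.05, where 7.42% did. T and D libraries did not overlap in 8 members upward and 5 downward, against 5.56% and 5.05% of all genes. With limma-voom on the recovered fragments 4 members passed the unadjusted thresholds.

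By the unadjusted thresholds, 4 members passed in T vs. D, 1 up and 3 down, where 1.1% of all genes did (0.632% up and 0.466% down). All 4 had a higher level in D than in C. Traes_3DS_BB402655B, a porphyrin gene, stood at 0.123, 0 and 0.138 scaled FPKM in C, at 7.20, 1.95 and 10.1 in D and at 1.41, 0.801 and 0.765 in T. Its D libraries were widely spread, yet all lay above all T libraries, and it fell by 2.34 from D to T (SE 0.59, P-value 0.0026, adjusted 0.51). Traes_2BS_E6B0749F7, a photosystem II gene under the stabilization term, had 0.447, 0.216 and 0.377 in C, 4.98, 2.91 and 6.14 in D and 1.52, 1.95 and 1.81 in T. It fell by 1.30 (SE 0.32, P-value 0.0025, adjusted 0.50), and T stayed above C in every library.

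Novel01062 is a transcript that the authors added to the annotation, listed under photosystem II and placed on the minus strand of chromosome 1B from 273849667 to 273850893, in a wheat genome release that is not named in the sources used here. It had 1, 0 and 1 fragments in C, 18, 11 and 21 in D and 5, 3 and 2 in T. Its level in D was at least 4.73-fold higher than that in C, and it fell by 1.60 from D to T (SE 0.37, P-value 0.0017, adjusted 0.49). Traes_5BL_FCB1625F3, of the oxygen evolving complex, was the one that rose. It stood at 1.03, 0.658 and 0.761 scaled FPKM in C, 2.27, 1.24 and 1.85 in D and 4.05, 8.5 and 2.69 in T, so that the levels of the 3 groups did not overlap. Its rise from D to T of 1.34 (SE 0.40, P-value 0.0076, adjusted 0.58) was largest in DTT + TUDCA replicate 2, and without that library it was 0.89 and did not pass. The call was also lost without control replicate 2 or 3, DTT replicate 2 or 3, or DTT + TUDCA replicate 1. With all libraries kept, it was lost with the replicate number as a block, with no variance trend and with only the groups compared. The calls of Traes_2BS_E6B0749F7 and Traes_3DS_BB402655B were lost without DTT replicate 1 or 3, the first also without DTT + TUDCA replicate 1 and the second without replicate 3. Novel01062 passed with any 1 library left out, but not with 0.01 or 1 added before the log2 (-2.05 with a P-value of 0.029, and -0.55). A further porphyrin gene, Traes_3AS_AC1FF5A12, was at 0 in all control libraries and had 73, 4 and 97 fragments in D against 5, 2 and 3 in T. Its T vs. D difference was -2.12 with a P-value of 0.017, DTT replicate 2 lying among the T values.

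**Figure D5:**
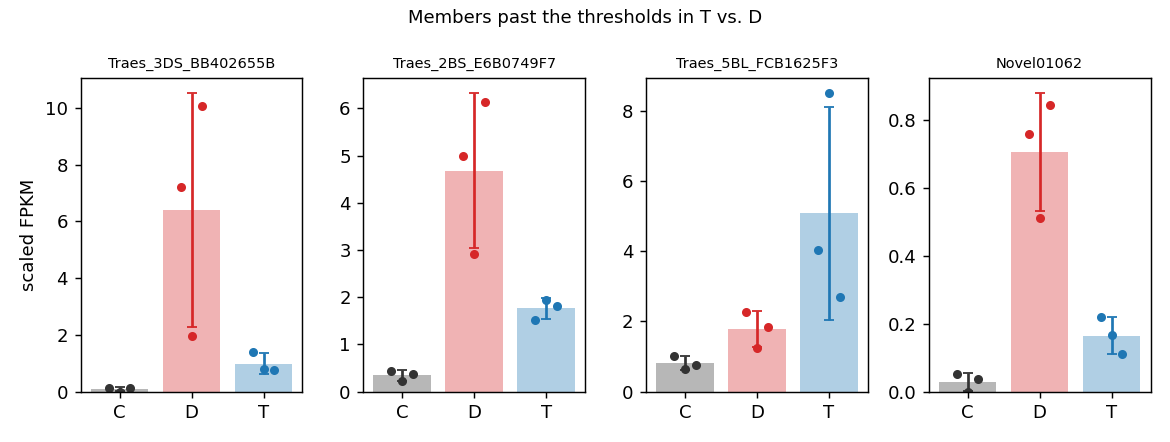
Scaled FPKM of the 4 members past the unadjusted thresholds in T vs. D, in C, D and T libraries. Bars are means, error bars the SD and points the 3 libraries of each group, and each panel has its own vertical axis from 0. In 3 genes D stands above T, and in Traes_5BL_FCB1625F3 T stands above D with 1 library at 8.5.

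Other genes of the same GO list, which the study likewise chose on D vs. C, give a frame for these values. Of 12 further photosystem I genes, 10 lay lower in D and 2 higher, with a median of -1.19 beside -1.23 for the 8 members. In T vs. D the medians were 0.22 and 0.16. Of 8 further photosystem II genes that could be read, 5 lay lower in D and 3 higher, and more genes of that term may be unread. Among these, Traes_4AS_757DD8D72, Traes_4BL_536016EDD and Traes_5DL_B45396EC4 passed upward in T vs. D, by 1.92, 2.16 and 1.15 (limma, unadjusted P-values 0.0026, 0.0013 and 0.0021). Their adjusted P-values were 0.50, 0.49 and 0.50, and 0.632% of all tested genes passed upward. This contrast shares the DTT libraries that helped choose the listed genes. Traes_4AS_757DD8D72 had a mean of 29.6 scaled FPKM in C and 4.47 in D, and stood at 10.8, 42.2 and 9.93 in the T libraries. Its T mean of 21.0 thus rests in large part on DTT + TUDCA replicate 2. Without that library the T vs. D difference was 1.24 (limma, unadjusted P-value 0.00053) and still past the thresholds. Traes_4BL_536016EDD had means of 5.05, 0.292 and 1.79 in C, D and T. Without that library it and Traes_5DL_B45396EC4 also still passed, by 1.63 and 1.12 (limma, unadjusted P-values 0.0024 and 0.0048). The member Traes_4DL_6EBF0647F lies on homoeologous group 4, like Traes_4AS_757DD8D72 and Traes_4BL_536016EDD. With all libraries its T vs. D difference was 1.66 with a P-value of 0.020.

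Chlorophyll breakdown was listed with 11 genes, of which 7 lay higher in D and 4 lower, a median of 1.13. None passed in T vs. D, where 1.1% of all tested genes did. The 10 genes named Bip, CNX and PDI in the study's list, whose products fold proteins in the ER, lay higher in D than in C, with a median of 1.42. They do not stand for all ER chaperones of that list, since the gene it names GRP94, Traes_5BS_AB86BB5DE, had 10.8 ± 0.721 scaled FPKM in C, 5.33 ± 0.360 in D and 8.35 ± 2.25 in T. In T those 10 stood higher still, at a median of 2.37 over C and 1.16 over D, 10 of 10 above D. By the unadjusted thresholds 2 passed upward in T vs. D, where 0.632% of all tested genes did. They too were chosen by the study on D vs. C. DTT + TUDCA replicate 2 was the highest T library in all 10. Among the photosynthesis genes that library was the highest T library for 23 of 55 and the lowest for 16.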

How the data were processed

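Read pairs were cleaned and mapped with TopHat2 2.0.12 by the authors, who deposited FPKM values of all genes for the 9 leaf libraries. The submitters' processing notes also name Bowtie2 2.2.3 and HTSeq 0.6.1. The strand and coordinate columns, deposited by the authors for the added transcripts only, hold other values and were used for position alone. The genome release is not given in the sources used here. No table column was left unmapped.

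Values were scaled by median ratios over 54436 genes whose mean FPKM reached 1, and 78030 genes, those whose mean FPKM reached 0.1, were fitted with limma 3.58.1 in R 4.3.3 on log2(scaled FPKM + 0.1), with 1 variance estimate for all 3 groups and a trend on the mean. The study's DESeq test was not repeated. The deposited unit is FPKM, and limma-voom on recovered fragments served as the count-based alternative. Benjamini-Hochberg adjustment ran over all tested genes. Fragment numbers were recovered from the FPKM steps, and 100% of values came out whole within 0.05. The libraries held 16328278 to 26747731 fragments, and floors of 3 fragments cover counting error only. A lower bound compares group means and leaves out their spread. Scripts were tested on simulated data. Figures used matplotlib 3.10.9 under python 3.11.15.

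The members and lists were chosen with earlier results of these data known. Named genes followed a rule. In each of the first 4 role groups these were the 3 highest in the control and the largest rise and fall in D vs. C. Added were all members for which no role term was read and every member past the thresholds in T vs. D. Those nearest to the fold limit and those at the floor were named too. Others named were chosen by chromosome arm or after their values were seen. Between C and T, libraries with the same number deviated together (correlation across genes of deviations from group means 0.16, 0.18 and 0.12), which meets the limit of 0.1 for pairing, although no source names a shared batch. This did not hold for C and D (-0.05, 0 and -0.05) or D and T (0.04, 0.04 and -0.17). Between C and T, libraries with different numbers reached 0.01 at most. However, DTT replicate 1 and DTT + TUDCA replicate 3 reached 0.29, so values of this size also arose without a shared number. Alternative settings added 0.01 or 1 in place of 0.1, asked for a mean FPKM of 1 or set no minimum, and used unscaled FPKM, quantile normalization, the replicate block, no variance trend, only the groups compared, limma-voom with trimmed-mean scaling, adjusted P-values, and leaving libraries out singly. A gene table of 155467 entries matched 0 member identifiers, so no sequences are shown.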

Additional observations from a re-analysis of the deposited data

How the results depend on the processing

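Members tested kept the sign of their D vs. C difference under the 20 alternatives run, with 1 of them at 0.00 to 2 decimals under quantile normalization. With all libraries, 38 (1 added before the log2) to 53 (0.01 added) passed the thresholds in D vs. C, and 28 to 39 for T vs. C. For T vs. D, 4 members passed, 2 with 0.01 added, 2 with 1 added and 0 with adjusted P-values. With no variance trend or only the groups compared 3 passed, Traes_5BL_FCB1625F3 being lost, and 3 passed at a minimum mean FPKM of 1. Traes_3DS_BB402655B and Novel01062 were lost with 0.01, Traes_2BS_E6B0749F7 and Novel01062 with 1, and Novel01062 was not tested at a minimum mean FPKM of 1. Leaving out 1 library at a time gave 37 to 53 members for D vs. C, 31 to 39 for T vs. C and 2 to 6 for T vs. D. The 37 came without control replicate 2, the 2 without DTT replicate 1 or 3, and the 6 without DTT + TUDCA replicate 1. With a library left out, 46 to 55 members kept the sign of T vs. D. The median of the oxygen evolving complex genes in D vs. C was -1.21, and -0.96 with unscaled FPKM, where 41 members passed, 21 up and 20 down in place of 19 and 33. Without a library it was -1.31 to -1.07, and in T vs. D, where it was 0.26, it was 0.18 to 0.35, and 0.09 with quantile normalization. Quantile normalization also gave 41 in D vs. C, 19 up and 22 down. It gives genes of equal rank equal values in every library, and all 11 members it lost lay above 1000 scaled FPKM in the control. Their D vs. C differences shrank, that of Traes_1AL_C42DE440F from -1.20 to 0, of Traes_2BL_4B8B77E73 from -1.13 to -0.12, of Traes_3B_3793EBCBE from -1.13 to -0.15 and of Traes_2DS_28E23A3D3 from -1.25 to -0.26, so for the most abundant members size and call depend on the scaling. With the replicate number as a replicate block, 49 members passed for D vs. C, 37 for T vs. C and 5 for T vs. D. Of these 5, 3 were among the 4 that passed without the block. No other call in T vs. C changed than those of Traes_1AL_C42DE440F and Traes_5DL_E83F92234. Depth limits the members under 1 scaled FPKM, several of which rest on under 20 fragments a library. The list holds 40 of 96 photosynthesis identifiers, with more of the genes lower in D left unread, and homoeologous copies can share reads.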
